A study of Mus musculus with 3 samples.

Results

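The genes described here are the amino acid transporters of 7 solute carrier families, Slc1, Slc3, Slc6, Slc7, Slc36, Slc38 and Slc43, in 3T3-L1 adipocytes. Members were chosen by name alone: a gene counted where its mouse symbol joined one of these family names to the letter a and a number. Of 61 genes of the RefSeq gene table with such a symbol, 59 were matched to a probe on the arrays, among 20142 named genes in all. Slc6a5 and Slc6a16 had no matched probe. The 59 members were read by 76 probes, and 45 of them by a single probe.

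3T3-L1 is a clonal mouse fibroblast line that becomes lipid-storing fat cells after hormonal induction, and it was compared at 2, 8 and 20 days after induction to follow the enlargement of the fat cells. All 3 cultures were of this line and had been induced, no genotype or drug treatment separated them, and the inducing agents are not given in the sources used here. Each day was measured on 1 Agilent array of 1 colour carrying cyanine-labelled cRNA from total RNA, so no difference could be tested, no p-value exists, and the number of arrays limits the precision. The error given below is a technical SD, the spread within an array between spots of the same probe at that brightness. It holds no spread between cultures, and none from the labelling, hybridization or scaling of separate arrays.

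Spots well above background made up 55.3% to 56.9% of each array, and 0 spots were saturated. The labelled cell type was borne out by its markers: 11 of 12 adipocyte genes were well above background on all 3 days and Lep on days 8 and 20. Adipoq, which encodes adiponectin, stood at 5.07, 8.90 and 8.18 on days 2, 8 and 20, and Fabp4, the fat cell fatty acid carrier, at 8.40, 8.35 and 7.64. These levels, like all below, are log2 intensities relative to the array's own 75th percentile, which is set to 0. All 10 preadipocyte and fibroblast markers were also well above background throughout, and their summed signal was 184, 301 and 473 times the 75th percentile, against 800, 1860 and 1200 for the adipocyte markers. Of the macrophage markers 5 of 9 were at background on every day, including Adgre1 and Ptprc, with summed signals of 9.06, 11.5 and 6.24. Itgam (3.05, 3.30 and 2.17), Csf1r (-0.81, -0.82 and -1.36) and Cd14 (-2.92, 0.05 and 0.37) were well above background on all days, and Cd14 was higher by 2.96 on day 8 than on day 2. Of the gut and kidney markers 8 of 10 were at background, with summed signals between 0.118 and 0.163, and of the neuron and glia markers 5 of 12 were, with summed signals between 3.39 and 7.63. In the latter list 4 were well above background on all days, the brightest being Snap25 (2.63, 2.89 and 1.67). Cubn of the gut and kidney list was at least 3.41-fold higher on day 8 than on day 2. Levels of different probes are not comparable, so these sums do not rank the lists. The part of the fibroblast and macrophage marker signals in the results below was not tested.

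Amino acid transporters of the cell surface bring in the building blocks of protein, nucleotides, glutathione and creatine, and those of the lysosome return amino acids freed by protein breakdown. Some work as obligatory exchangers that trade an inside amino acid for an outside one, others are driven by sodium or protons, and most Slc7 light chains reach the membrane only when joined to an Slc3 heavy chain. In cells short of amino acids the transcription factor ATF4 raises several of these genes together with enzymes of amino acid synthesis. In fat tissue, Slc7a10 is known as a surface marker of white adipocytes and Slc36a2 as a surface marker of brown and beige adipocytes.

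Promoter sequence was looked at for members with large differences in each direction. RefSeq's promoter table (build GRCm38.p6) held the start of 41 of the 59 members, and of 10 of the 15 members that were at least 2-fold apart in some comparison. Slc36a2, Slc43a3, Slc6a6, Slc7a3 and Slc7a5 have no window there, so the next members in size, Slc7a1 and Slc43a1, are shown. Slc7a11 is shown besides: it has bounds but no measured difference and is not among the 15. Of the other members 2-fold apart, Slc1a3, Slc3a2, Slc36a4 and Slc38a4 have windows that held 0 of the motifs searched. The 250 bases before the start of Slc7a11, Slc7a1 and Slc43a1 are printed 5' to 3' on the gene's strand, with motif matches in capitals. Slc7a11, the cystine carrier that was above background on day 2 alone, lies on the minus strand at chr3:50443614-50443863. Slc7a1, an arginine and lysine carrier that was lower on day 8, lies on the minus strand at chr5:148399905-148400154. The table gives Slc7a1 another start, whose window at chr5:148392816-148393065 held 0 of the motifs searched; the window with a match is printed. Slc43a1, a leucine carrier that was higher on day 8, lies on the plus strand at chr2:84840073-84840322.
Slc7a11: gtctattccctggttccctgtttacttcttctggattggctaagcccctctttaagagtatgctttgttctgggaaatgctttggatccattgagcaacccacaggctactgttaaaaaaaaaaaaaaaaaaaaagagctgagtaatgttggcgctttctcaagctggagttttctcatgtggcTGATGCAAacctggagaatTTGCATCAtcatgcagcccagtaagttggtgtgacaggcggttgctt
Slc7a1: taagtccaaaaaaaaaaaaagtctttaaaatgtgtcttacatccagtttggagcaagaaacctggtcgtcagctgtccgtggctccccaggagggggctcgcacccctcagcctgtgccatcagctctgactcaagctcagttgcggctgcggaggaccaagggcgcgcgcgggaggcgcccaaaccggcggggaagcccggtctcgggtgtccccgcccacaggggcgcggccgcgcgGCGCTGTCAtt
Slc43a1: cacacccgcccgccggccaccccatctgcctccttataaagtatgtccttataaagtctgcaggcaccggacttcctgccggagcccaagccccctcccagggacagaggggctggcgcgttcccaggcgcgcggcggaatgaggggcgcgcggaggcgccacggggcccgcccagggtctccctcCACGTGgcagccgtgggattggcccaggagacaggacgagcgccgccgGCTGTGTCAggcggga

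Motifs were searched on both strands in all windows, 61 for the 41 members and 32851 for all 27025 genes. A gene counted where any of its windows held a match, and the members had more windows per gene. The core of the amino acid response element that C/EBP and ATF factors bind, TGATGNAA, stood in 3 of 41 members (7.32%), Slc6a21, Slc7a7 and Slc7a11, against 3.91% of all 27025 genes with a window. The element with 1 more base of any kind, TGATGNAAN, overlaps that core and gave the same 3 members, against 3.89% of all genes. Slc7a11 held the core at both matches printed, TGATGCAA from -66 to -59 and TTGCATCA, the core on the strand opposite to the gene's, from -47 to -40 relative to the start. The antioxidant element TGACNNNGC stood in 7 members (17.1%), against 11.5% of all genes: Slc6a9, Slc6a11, Slc6a13, Slc7a1, Slc7a6, Slc38a2 and Slc43a1. In Slc7a1 the match was GCGCTGTCA from -11 to -3, and in Slc43a1 it was GCTGTGTCA from -16 to -8, both on the strand opposite to the gene's. The E-box CACGTG stood in 8 members (19.5%), against 6.86% of all genes: Slc1a6, Slc1a7, Slc6a3, Slc7a14, Slc36a1, Slc38a5, Slc38a7 and Slc43a1. The direct repeat bound by PPAR and RXR was found with no mismatch in 0 members and in 0.0407% of all genes. Each match is a description of the letters in these 250 bases only.

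A smaller share of the transporters than of all genes was detected. On all 3 days 25 of 59 members (42.4%) were well above background, against 58.6% of all 20142 genes. Another 5 were so on 1 or 2 days and 29 on none. By day the number was 29, 27 and 25. A difference was measured where a member was well above background on both days, and a member was called higher or lower from a 2-fold difference, 1 on the log2 scale. Where a member passed on 1 of the days only, the fold is a bound against the dim array's lowest signal well above background, which was -5.70, -5.76 and -5.91 on days 2, 8 and 20.

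From day 2 to day 8, Slc36a2, Slc43a1, Slc6a6, Slc38a4 and Slc1a3 were higher, and Slc7a5, Slc7a1, Slc3a2, Slc6a9, Slc36a4 and Slc38a2 were lower. That is 5 higher and 6 lower of 26 measured members, or 19.2% and 23.1%, where 13.8% of all measured genes were higher and 12.9% lower. The other 15 stayed within 2-fold. The median difference of the members was -0.17 against -0.06 over all genes, and its median size was 0.81 against 0.56, with a median technical SD of 0.074. In RNA from a whole culture, fewer cells of a type and less RNA per cell cannot be told apart.

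**Figure D1:**
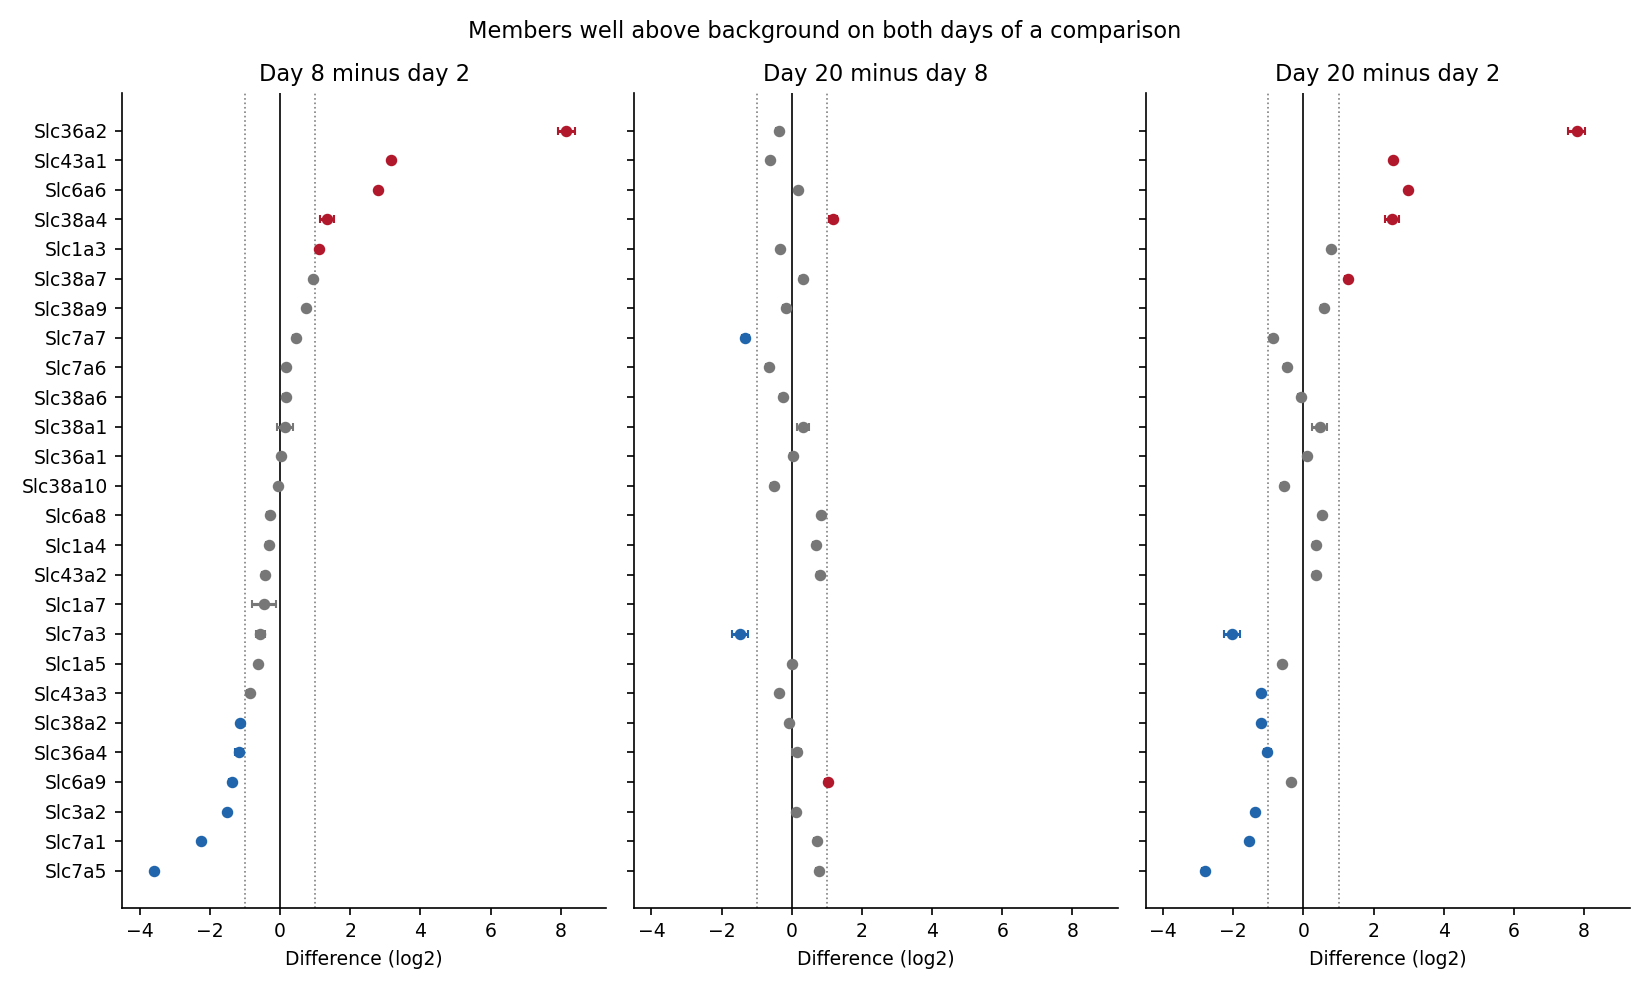
Log2 differences of the 26 members measured between days 2 and 8 (left), days 8 and 20 (middle) and days 2 and 20 (right), ordered by the left panel; bars are technical SDs, dotted lines mark 2-fold, and red and blue points lie at or beyond it. Slc36a2 stands at 8.16 and 7.79 in the outer panels and at -0.37 in the middle one, and most middle points lie inside the dotted lines.

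From day 8 to day 20 fewer members moved: Slc38a4 and Slc6a9 were higher, and Slc7a3 and Slc7a7 lower. These are 2 and 2 of 25 measured members (8.0% each), where 3.58% of all measured genes were higher and 1.74% lower. The median difference of the members was 0.04 against -0.05 over all genes, with a technical SD of 0.079 at the median. Scaling on the spiked-in control RNA in place of the 75th percentile moves the median of all genes by 0.66 in this comparison, and on that scale 7 members were higher (Slc1a4, Slc6a8, Slc6a9, Slc7a1, Slc7a5, Slc38a4 and Slc43a2) and 0 lower. Of all 12321 measured genes, 2028 were higher and 21 lower on that scale. The same scaling turned the sign of 8 of the 25 members, none of them further apart than 0.62. Of all genes called, 67.3% were higher, and 99.0% under that scaling, 83.0% under cyclic loess, and 34.5% with no filter on dim probes. What follows is relative to the 75th percentile.

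Between days 2 and 20, which reuses both end arrays, 5 of 25 members were higher (20.0%) and 7 lower (28.0%), where 15.5% of all measured genes were higher and 17.0% lower. Higher were Slc36a2, Slc6a6, Slc43a1, Slc38a4 and Slc38a7, and lower were Slc7a5, Slc7a3, Slc7a1, Slc3a2, Slc43a3, Slc38a2 and Slc36a4. The median difference was -0.07 against -0.14 over all genes. On the scale of the spiked-in controls, which moves the median of all genes by 0.70 here, 11 members were higher and 2 lower. Of all 11888 measured genes, 3860 were higher and 698 lower on that scale. Of all genes called, 47.7% were higher, against 84.7% under that scaling, 65.0% under cyclic loess and 59.8% with the percentile taken over detected probes. Slc3a2 and Slc38a2 were within 2-fold under quantile, cyclic loess and spiked-in scaling (-0.68 and -0.50 at the least), and Slc36a4 under 4 of 9 alternatives (-0.33 at the least). The 3 comparisons share arrays, so a value that is high on 1 day enters 2 of them.

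**Figure D2:**
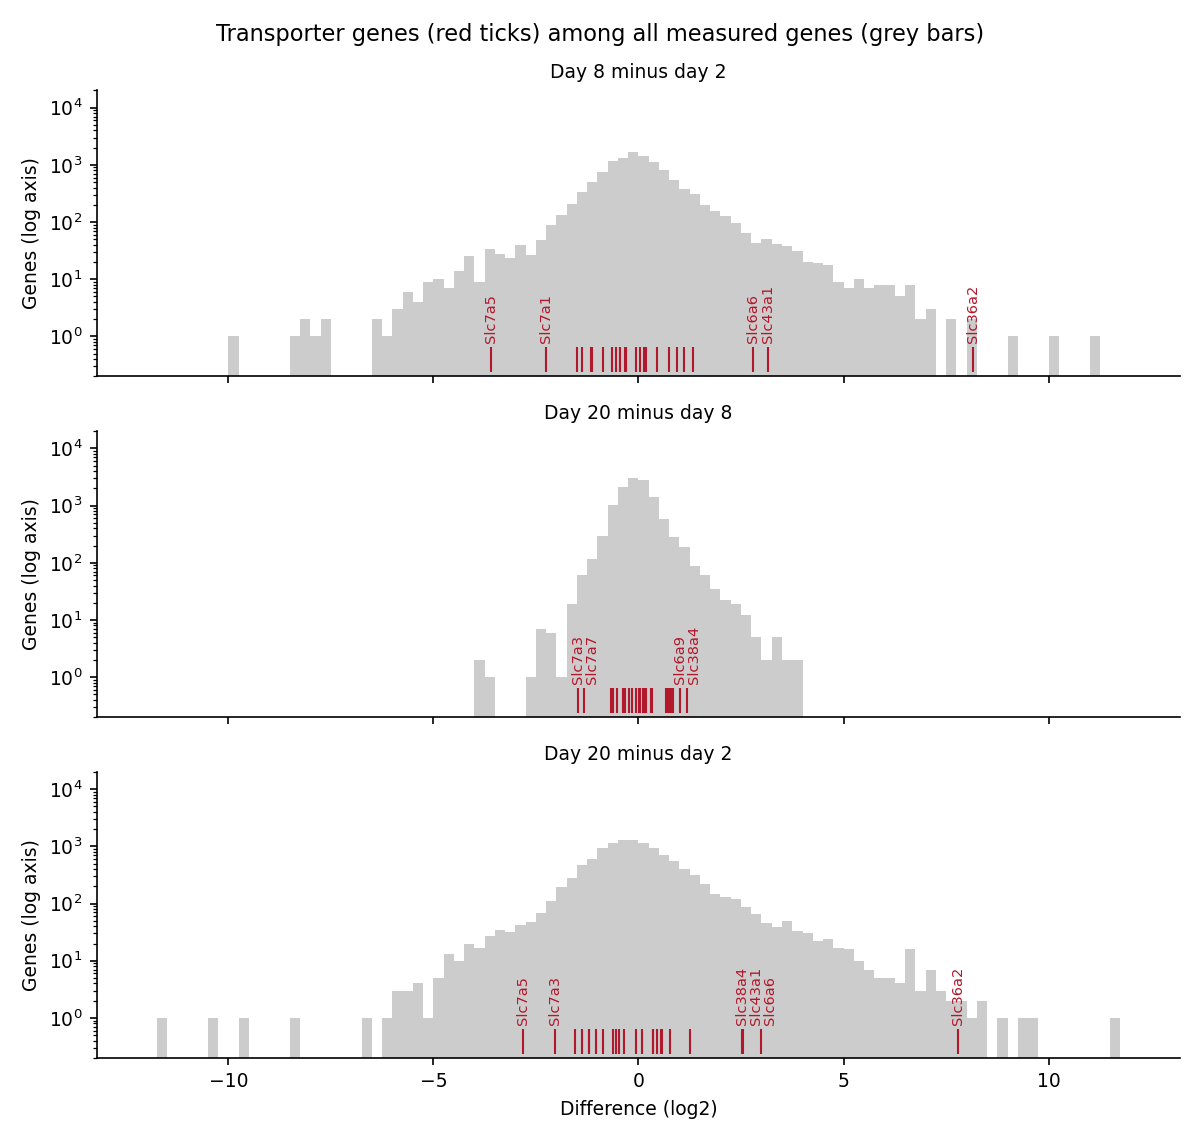
Number of genes per bin of log2 difference on a log axis (grey) in the 3 comparisons, with each measured member as a red tick and the furthest ones named. Slc36a2 sits near the right end between days 2 and 8, at rank 5 of 12044 measured genes, and every tick lies between -1.48 and 1.18 between days 8 and 20.

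Of the heteromeric exchangers, the heavy chain Slc3a2 and the light chains Slc7a5 and Slc7a11 were lower after day 2. Slc3a2 (CD98), which carries light chains to the surface, stood at 5.36, 3.85 and 3.97 on days 2, 8 and 20. Day 2 was the high day: the gene was 2.84-fold lower on day 8, by -1.51 ± 0.061 (technical SD), and the later step was 0.12. Slc7a5 (LAT1), the leucine and large neutral amino acid exchanger that pairs with it, had intensities of 2940, 234 and 584, or levels of 2.15, -1.44 and -0.67. It was 12-fold lower on day 8, by a log2 difference of -3.59 ± 0.073, the largest fall among the measured members and rank 118 from the bottom of 12044 genes. On day 20 it was still 7.04-fold lower than on day 2. For the later step its probes disagreed, 0.77 for the brighter probe used and -0.11 for the other, while both fell from day 2 to day 8 (-3.59 and -2.72).

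Slc7a11 (xCT), the light chain that trades glutamate for cystine, was well above background on day 2 alone. Its levels were -3.91, -8.03 and -6.73, from intensities of 44.0, 2.42 and 8.72. It was at least 3.6-fold lower on day 8 and at least 4.0-fold lower on day 20 than on day 2. Slc7a7 (y+LAT1), an exchanger of arginine and lysine for neutral amino acids, stood at -1.14, -0.69 and -2.01, lowest on day 20. The later step was -1.32 ± 0.087, 2.50-fold lower and rank 77 from the bottom of 12321 genes, but -0.66 on the scale of the spiked-in controls. Its relative Slc7a6 (y+LAT2) stayed within 2-fold, at -1.55, -1.37 and -2.03. Slc7a15 was above background on day 2 alone, at -4.99, and was at least 1.70-fold lower on day 8 and at least 1.89-fold lower on day 20. Its second probe was at background on every day.

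The other light chains were at background on all 3 days. They are Slc7a8 (LAT2), Slc7a9, which pairs with the likewise undetected heavy chain Slc3a1 in kidney cystine uptake, Slc7a10, Slc7a12 and Slc7a13. Slc7a10 (Asc-1), the white adipocyte marker, read -7.85, -7.89 and -8.03, below the lowest signal well above background on each array. In all, 3 of 10 light chains were detected on all days.

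**Figure D3:**
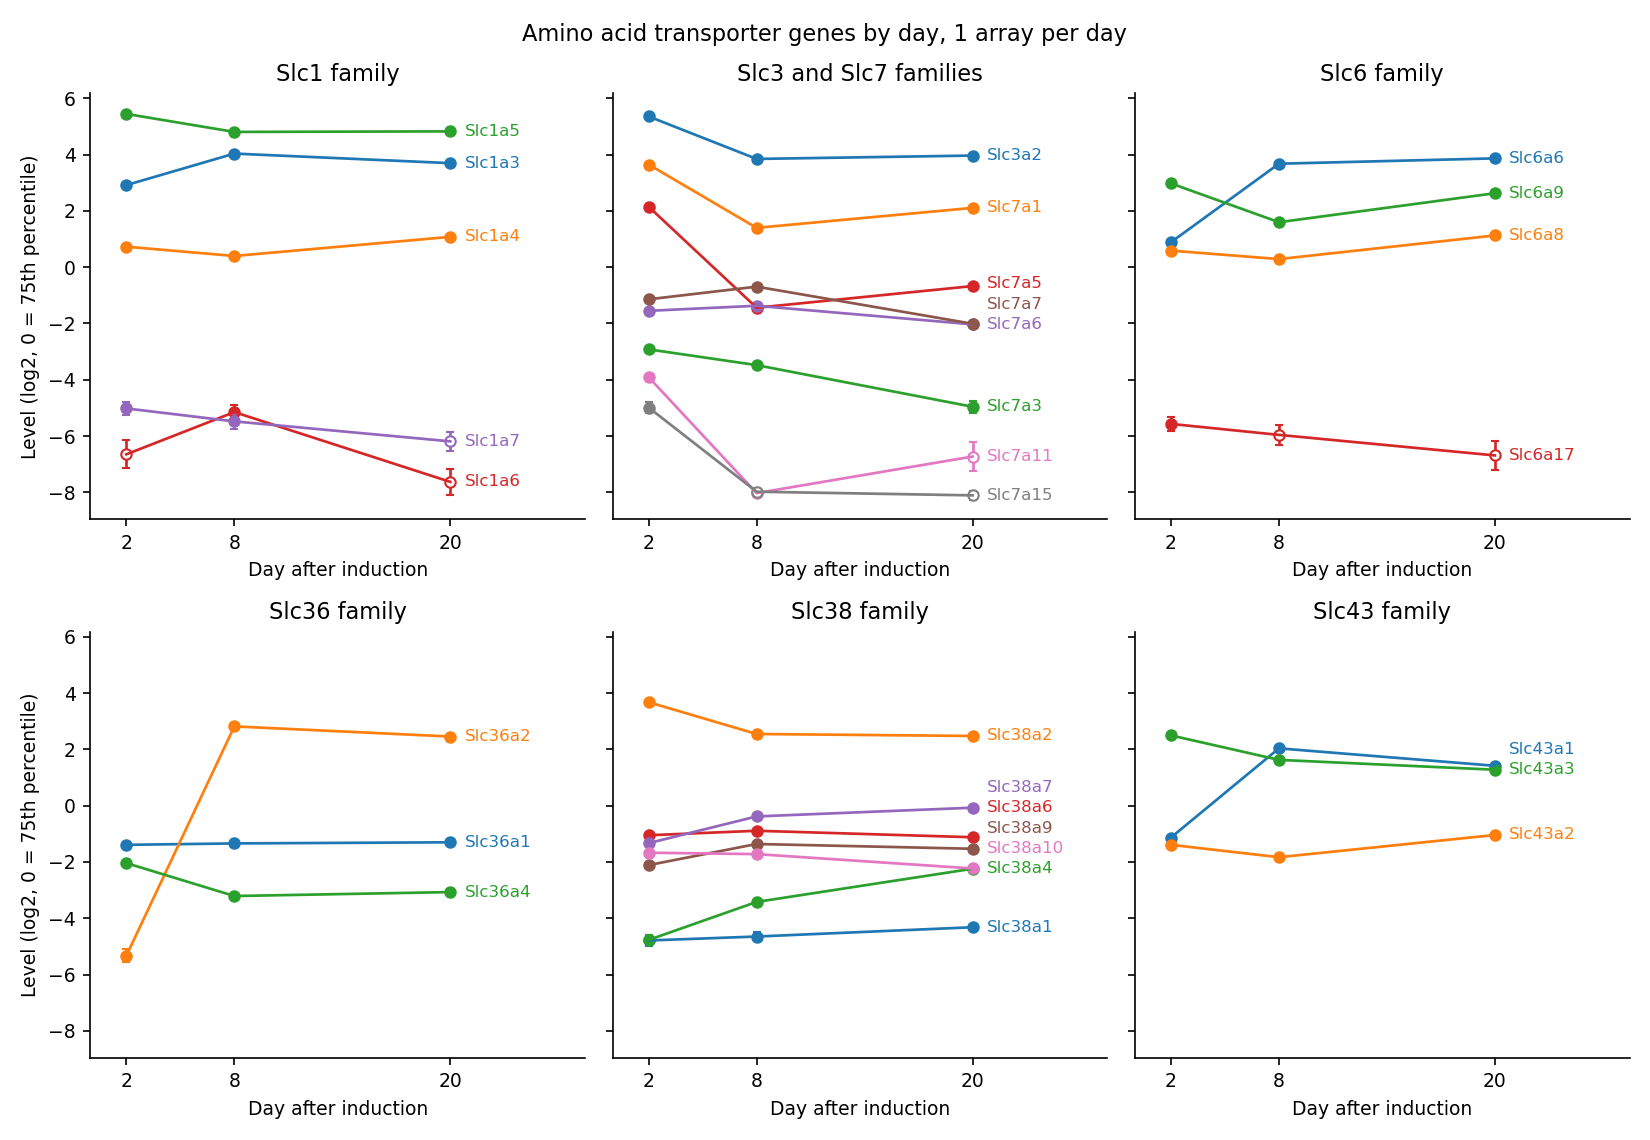
Level of the 30 members that were well above background on at least 1 day, by family, against the day after induction, as log2 intensity relative to the array's 75th percentile with technical SDs; open circles were not well above background. Slc7a5, Slc7a1 and Slc3a2 step down between days 2 and 8 while Slc36a2, Slc43a1 and Slc6a6 step up; levels of different probes are not amounts of transcript and are not comparable.

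Both measured cationic carriers were lower on day 20 than on day 2. Slc7a1 (CAT-1), the widely expressed arginine and lysine carrier, stood at 3.65, 1.40 and 2.11. It was highest on day 2 and lowest on day 8, with a difference of -2.25 ± 0.062, 4.74-fold lower, and the later step was 0.71. Over the whole course it was 2.90-fold lower, and under spiked-in scaling -0.83, short of 2-fold. Slc7a3 (CAT-3), a carrier best known from brain, stood at -2.92, -3.48 and -4.96. Day 20 was the low day: the earlier step was -0.56 and the later one -1.48 ± 0.235, 2.79-fold lower. That step was under 2-fold by the spiked-in scaling and by another background correction (normexp), with -0.82 as the smallest value, while day 20 stayed at least 2-fold below day 2 under the 8 alternatives that gave a value. Slc7a2, Slc7a4 and Slc7a14 were at background throughout.

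In the Slc36 family, which includes proton-driven carriers of glycine, alanine and proline, 3 of 4 members were detected on all days and each did something different. Slc36a2 (PAT2), the brown and beige adipocyte marker, had intensities of 16.4, 4500 and 5080 on days 2, 8 and 20, or levels of -5.33, 2.82 and 2.46. Day 2 was near background and days 8 and 20 were both bright. The difference from day 2 to day 8 was 8.16 ± 0.245, 286-fold higher, and on day 20 the gene was still 221-fold above day 2, rank 9 from the top of 11888 genes. The day 2 level lies close to the lowest detected signal of -5.70, so the size is uncertain. Normexp gave 6.05, where the offset of 50 shrinks the difference by construction, and the other alternatives gave up to 8.29. Slc36a1 (PAT1), a lysosomal carrier, read -1.39, -1.34 and -1.30, the smallest spread of any measured member at 0.09, although its dimmer probe gave -0.34 between days 2 and 20. Slc36a4 (PAT4), an amino acid carrier with high affinity for proline and tryptophan, stood at -2.04, -3.21 and -3.07. It was 2.26-fold lower on day 8 (-1.17 ± 0.105), a call that ended under normexp at -0.70, and its second probe was above background on day 2 alone. Slc36a3 was at background.

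The Slc38 family of sodium-coupled carriers of glutamine, alanine and other neutral amino acids had the most detected members, 7 of 11 on all days. Slc38a4 (SNAT4), a carrier best known from liver, stood at -4.77, -3.42 and -2.24. It was higher at each step, by 1.34 ± 0.203 (2.54-fold) and then 1.18 ± 0.114 (2.27-fold), and 5.75-fold higher on day 20 than on day 2. Under normexp these steps were 0.57 and 0.50, each short of 2-fold, and the whole course was 1.08. Slc38a2 (SNAT2), a carrier that cells raise when amino acids run short, stood at 3.68, 2.55 and 2.48. Day 2 was its high day, with -1.13 ± 0.068 from day 2 to day 8, 2.19-fold lower, against -0.07 after it. Quantile normalization (-0.91) and cyclic loess (-0.96) left that step short of 2-fold.

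Members of the family that work at the lysosome include Slc38a7 and Slc38a9. Slc38a7 (SNAT7), which exports glutamine and asparagine from lysosomes, stood at -1.33, -0.38 and -0.07. Its steps were 0.95 and 0.31, each under 2-fold, and day 20 was 2.40-fold above day 2 (1.26 ± 0.076). Slc38a9, the lysosomal arginine sensor of the mTORC1 pathway, stood at -2.11, -1.36 and -1.53, within 2-fold in each comparison. Its 3 probes gave 0.75, 0.48 and 0.99 between days 2 and 8, and 0.58, 0.15 and 1.08 between days 2 and 20, so the dimmest passed 2-fold there. Among the steadiest members were Slc38a6 at -1.05, -0.89 and -1.12, Slc38a1 (SNAT1) at -4.79, -4.65 and -4.32, and Slc38a10 at -1.67, -1.72 and -2.23, with spreads over the 3 days of 0.24, 0.46 and 0.56. The values of Slc38a1 come from 1 of its 3 probes, and the other probes were at background on every day. Slc38a3 (SNAT3), Slc38a5 (SNAT5), Slc38a8 and Slc38a11 were at background on all days.

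The Slc43 family was detected in full, 3 of 3 members on all days. Slc43a1 (LAT3), a leucine and large neutral amino acid carrier that needs no heavy chain, had intensities of 303, 2620 and 2480, or levels of -1.13, 2.04 and 1.42. It was low on day 2 and high on both later days: 3.17 ± 0.072 from day 2 to day 8, 9.0-fold higher and rank 256 from the top, then -0.62, a step that changed sign under spiked-in scaling. Slc43a3, now known as a carrier of purine nucleobases, stood at 2.50, 1.63 and 1.28. Its steps were -0.87 and -0.35, and it was 2.32-fold lower on day 20 than on day 2, but within 2-fold under cyclic loess and spiked-in scaling (-0.51 at the least). Slc43a2 (LAT4) stayed within 2-fold, at -1.39, -1.83 and -1.04.

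In the Slc6 family of sodium- and chloride-coupled carriers, 13 of 17 members were at background on all days and 3 were detected throughout. Slc6a6, the taurine transporter, had intensities of 1230, 8170 and 13600, or levels of 0.89, 3.68 and 3.87. It was low on day 2 alone, 6.91-fold higher on day 8 (2.79 ± 0.063) and 7.87-fold higher on day 20. Slc6a9 (GlyT1), the glycine transporter, stood at 2.98, 1.60 and 2.63 and had its low point on day 8. It was 2.60-fold lower from day 2 to day 8 (-1.38 ± 0.065) and 2.03-fold higher from day 8 to day 20 (1.02 ± 0.07), where normexp gave 0.98, just short of 2-fold. Its second probe gave -1.33 and 1.03. Slc6a8, the creatine transporter, stood at 0.59, 0.29 and 1.13, with steps of -0.30 and 0.84.

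Most other Slc6 genes were not detected in these cells. Among those at background were the carriers Slc6a11, Slc6a12 and Slc6a13 of GABA and related compounds, the transporters of noradrenaline (Slc6a2), dopamine (Slc6a3), serotonin (Slc6a4) and proline (Slc6a7), the gut and kidney carriers Slc6a18 and Slc6a19, and Slc6a14, Slc6a15 and Slc6a21. Together with the 16 members of other families that were at background on every day, their levels lay between -8.26 (Slc6a14) and -5.74 (Slc38a11). Slc6a17, a carrier of synaptic vesicles, was above background on day 2 alone, at -5.57, with bounds of 1.14-fold and 1.27-fold on days 8 and 20.

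In the Slc1 family the glutamate carrier Slc1a3 (GLAST) was the measured member that was 2-fold apart. It stood at 2.92, 4.04 and 3.70, with day 8 the highest, and was 2.18-fold higher on day 8 than on day 2 (1.12 ± 0.063) and 1.72-fold higher on day 20. Slc1a5 (ASCT2), the exchanger of glutamine and other small neutral amino acids, stayed within 2-fold at 5.45, 4.81 and 4.83, and its second probe gave -0.82 where the first gave -0.64. Slc1a4 (ASCT1), which carries serine and alanine, read 0.73, 0.40 and 1.08. The other glutamate carriers were dim: Slc1a1 and Slc1a2 were at background on all days, Slc1a6 was above it on day 8 alone at -5.15, and Slc1a7 was above it on days 2 and 8 at -5.02 and -5.48.

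Genes around these carriers were described from 7 lists of pathways, and each count below can be read against the shares of all genes given above. In the list of the amino acid response and ATF4 targets, 10 of 22 measured genes were lower on day 8 than on day 2 and 2 higher, with a median of -0.55 against -0.06 over all genes. Cth, which makes cysteine from cystathionine, was at -2.98, and the mitochondrial one-carbon enzymes Mthfd2 and Shmt2 at -2.75 and -2.23. Psph of serine synthesis was at -1.91 and the phosphatase subunit Ppp1r15a at -1.64, while the lipoprotein receptor Vldlr (1.04) and the translation repressor Eif4ebp1 (1.03) were higher. Asparagine synthetase Asns stood at 6.58, 5.08 and 5.25 and Atf4 itself at 8.34, 6.91 and 7.10, both highest on day 2. Fgf21, a secreted hormone, was above background on day 2 alone and at least 7.0-fold lower on day 8. From day 8 to day 20, 2 of 22 genes were higher, Mthfd2 by 1.16 and the stress-induced factor Atf3 by 1.14, and 0 lower. Between days 2 and 20, 7 were lower and 2 higher.

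Genes of amino acid sensing at the lysosome were counted next, where 13.8% of all measured genes were higher on day 8 and 12.9% lower. Of 23 measured genes 2 were higher on day 8 than on day 2, Rragc of the Rag GTPases (1.14) and its regulator Flcn (1.03), and 2 lower, the leucine sensor Sesn2 (-1.02) and Rraga (-1.01). Later, between days 8 and 20, all 23 stayed within 2-fold. In the list of glutamine, glutamate and asparagine enzymes, 2 of 13 were higher on day 8 and 3 lower, with a median of -0.67. Alanine aminotransferase Gpt went from 1.22 to 5.76 and 5.58 and the proline-degrading Prodh from -0.30 to 3.47 and 3.31, while Got1 (-1.76) and Aldh18a1 of proline synthesis (-1.51) were lower on day 8. In the later step all 13 stayed within 2-fold.

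Enzymes that break down leucine, isoleucine and valine were higher on day 8, 13 of 23 measured genes against 1 lower, with a median of 1.11 over the list. Bckdha, a subunit of the branched-chain ketoacid dehydrogenase, was higher by 2.74, followed by Aldh6a1 (2.11), Mccc1 (2.07), Pccb (2.05) and Acadsb (1.95). The cytosolic branched-chain aminotransferase Bcat1 did the reverse, with levels of -0.58, -4.63 and -2.67: it was lower by -4.06 ± 0.153 on day 8 and then higher by 1.96 ± 0.162. It was the 1 gene of the list outside 2-fold from day 8 to day 20, and between days 2 and 20 the count was 7 higher and 1 lower of 23.

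Smaller lists were mixed. Of 9 measured genes of cysteine and glutathione synthesis, 2 were higher on day 8, the oxoprolinase Oplah (2.77) and the cysteine dioxygenase Cdo1 (1.44), and 2 lower, Cth and the glutathione-degrading Chac1 (-1.26). By bounds, Ggt5 was at least 2.49-fold higher on day 8 than on day 2, and Ggt7 at least 3.3-fold lower. From day 8 to day 20, 1 of 11 measured genes was higher, Ggt5 by 1.32, and 0 lower. Ggt7, dim on day 8 alone, was at least 2.46-fold higher in that step. Of 7 measured genes of creatine, GABA and arginine metabolism, 3 were higher, the nitric oxide synthase Nos3 (4.05), Asl (2.11) and the creatine-making Gamt (1.93), and the polyamine enzyme Odc1 was lower (-1.84). In the later step Aldh5a1 of GABA breakdown was higher (1.25) and Nos2 lower (-1.37). Among 16 measured carriers listed apart from the members, the mitochondrial glutamate carrier Slc25a22 (1.51) and the lysosomal cystine exporter Ctns (1.18) were higher on day 8, and the mitochondrial aspartate-glutamate carrier Slc25a12 (-2.76) and the aromatic amino acid carrier Slc16a10 (-1.15) lower. In the later step the lysosomal sialic acid carrier Slc17a5 (-1.25) and the peptide carrier Slc15a2 (-1.09) were lower, and 0 of 17 were higher. That list also holds Slc6a20a, an Slc6 carrier whose symbol ends in a letter and which is therefore no member; it stood at -3.65, -3.83 and -4.47, within 2-fold in each comparison. Some genes stand in 2 lists, among them Asns, Aldh18a1, Cth, Chac1 and Sesn2.

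**Figure D4:**
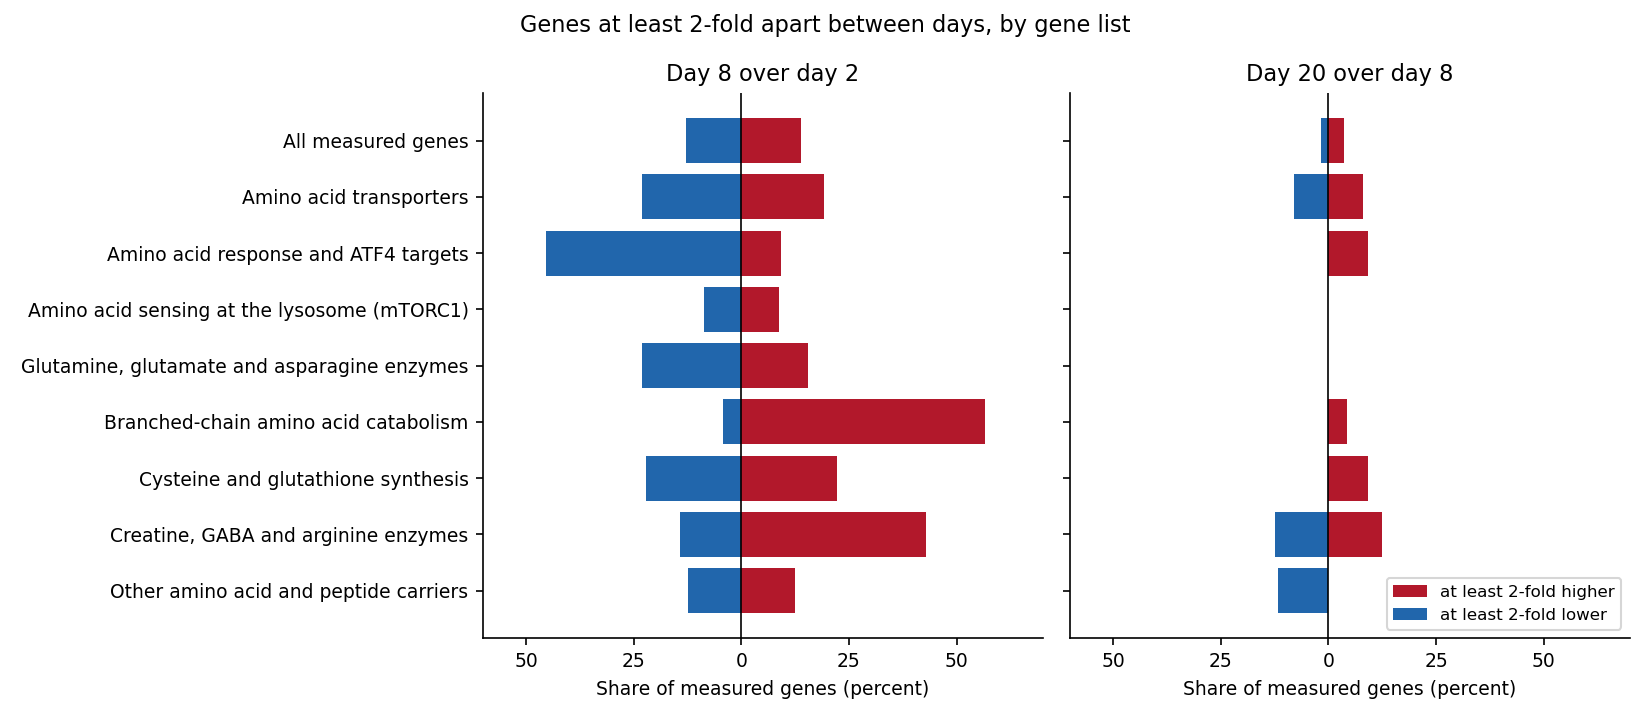
Percent of measured genes at least 2-fold higher (red, to the right) or lower (blue, to the left) in each gene list, with all measured genes and the amino acid transporters on top, for day 8 over day 2 and day 20 over day 8. The longest red bar is branched-chain catabolism on day 8 (13 of 23 genes) and the longest blue bar the amino acid response list (10 of 22), and the bars for day 20 over day 8 are short.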

How the data were processed

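Agilent 1-colour arrays of days 2, 8 and 20 were used, 1 per day. Per the submitters' processing notes the software was Agilent Feature Extraction 10.7.1.1. Its deposited intensity is linear spot brightness, background-corrected but unscaled between arrays, per the file headers. In the series table the authors gave log2 values, which differ from log2 of that intensity by a constant per array (-9.37, -9.31 and -9.86; column medians -4.80, -4.69 and -4.89), within 0.05 for 100% of probes, so scale, centring and direction are known; they served as an alternative.

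Outlier and control spots were dropped, repeated spots averaged in log2, and the 75th percentile of an array's non-control probes (intensities of 662.2, 635.9 and 927.1) subtracted. By RefSeq accession, 26581 of 39429 probes were named, 26579 of them for the 20142 genes used, and a gene took its brightest probe. Where a probe was not well above background on 1 of 2 days, the fold is a bound against that array's lowest signal well above background; where the dim value was higher, it was used instead. Technical SDs came from the 31 replicated probes nearest in signal. The scripts were tested on simulated data. Promoters were the 250 bases before each RefSeq start in the table.

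Members and lists were chosen with earlier results of these data known. The values of 1 member are not reported here. Named in full are members at least 2-fold apart or with a 2-fold bound, and the 4 steadiest; of each list, up to 5 genes in a direction and 2 against it. Alternatives were quantile, cyclic loess, spiked-in and detected-probe scaling, normexp (offset 50, on median signal, since no mean signal is in the files used here), filters, 1.5-fold and 4-fold thresholds, probe averaging, the series table and stricter naming. Stricter naming could change no value, because every RefSeq accession used already named 1 gene. R 4.3.3, limma 3.58.1, numpy 2.4.6 and pandas 2.3.3 were used.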

Additional observations from a re-analysis of the deposited data

How the results depend on the processing

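Each day was 1 array, so spread between cultures was not measured and no replicate was left out. No paired analysis was possible because each day has 1 array. Of 236 values of the 27 called member differences under the alternatives, 0 changed sign, 148 stayed within the technical SD and 88 moved further. Many of the 148 repeat the main value by construction and do not measure stability. The series table differs by a constant per array, filters alter no measured value, and averaging leaves single-probe members unchanged. For Slc1a3, day 8 over day 2, these settings all gave the main 1.12, and cyclic loess gave 1.3. Called differences were at least 1 in size and spiked-in scaling moved the all-gene median by 0.70 at most, so a changed sign was unlikely. Some moves follow from the settings. Spiked-in and detected-probe scaling shift every member of a comparison by the same amount, and the normexp offset shrinks differences of dim probes. Filters and fold thresholds change which members count. The cause of the other moves was not tested. Levels near the lowest detected signal limit Slc36a2 on day 2 and Slc7a3, Slc38a1 and Slc38a4.

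For day 8 over day 2 (5 higher, 6 lower, median -0.17), the higher count was 8 with no filter on dim probes, 3 with the stricter filter and 3 at 4-fold; the lower count was 11 with no filter and 2 at 4-fold. The median was -0.07 under cyclic loess, -0.04 with the percentile over detected probes, 0.01 under normexp, -0.04 with no filter and -0.30 with the stricter filter.

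For day 20 over day 8 (2 higher, 2 lower, median 0.04), the higher count was 7 under spiked-in scaling, 0 under normexp, 1 with the stricter filter, 7 at 1.5-fold and 0 at 4-fold. The lower count was 0 under spiked-in scaling, 1 under normexp, 6 with no filter, 1 with the stricter filter, 4 at 1.5-fold and 0 at 4-fold. The median was 0.23 under quantile normalization, 0.30 under cyclic loess, 0.70 under spiked-in scaling, -0.10 under normexp and -0.14 with no filter.

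For day 20 over day 2 (5 higher, 7 lower, median -0.07), the higher count was 11 under spiked-in scaling and 3 with the stricter filter. The lower count was 4 under quantile normalization, 3 under cyclic loess, 2 under spiked-in scaling, 14 with no filter and 2 at 4-fold. The median was 0.07 under cyclic loess, 0.63 under spiked-in scaling, 0.12 with the percentile over detected probes, -0.18 with no filter and -0.35 with the stricter filter.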
